A study of Mus musculus with 3 samples.

Results

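Adrenergic receptors are the cell-surface receptors for noradrenaline and adrenaline, and 7 of their genes are described here: Adra1a, Adra1b and Adra1d (alpha-1), Adra2a, Adra2b and Adra2c (alpha-2) and Adrb1 (beta-1). They were chosen by symbol, and all 7 are among the 32532 genes listed in the count files. The remaining beta receptor genes were not analysed here. The tissue was the cortex-amygdala transition zone, at the border between ventral cortex and the amygdala. It was dissected from adult, untreated control mice of the transgenic line Lypd1-TRAP OI82, in which ribosomal protein L10a is fused to EGFP under regulatory DNA of Lypd1, and ribosomes with their RNA were pulled down with anti-EGFP antibodies. All 3 libraries are immunopurified RNA of this 1 group, and they are called replicates 1, 2 and 3. The promoter sets which cells are tagged, so every value below is a level in RNA captured from the cells in which this transgene is active, together with whatever other RNA the pull-down carried. The design text speaks of 3 mice, but no label ties a library to a single mouse, so p-values measure only the spread between these libraries, which may be partly technical. No unpurified tissue RNA was analysed here, and the values are levels, not enrichments.

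Noradrenaline reaches cortex and amygdala mostly along axons whose cell bodies lie in the brainstem, chiefly in the locus coeruleus. Its receptors are seven-helix membrane proteins that differ in the G protein they engage. Alpha-1 receptors act through Gq and phospholipase C, alpha-2 receptors through Gi/o, which lowers cyclic AMP and opens inward-rectifier potassium channels, and beta receptors through Gs, which raises cyclic AMP. In the amygdala and neighbouring cortex noradrenaline is known for its effects on arousal and on memory for emotional events.

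The genes are related yet separable by sequence, which matters because the files list reads with several alignments in a class apart from the gene counts. The 33 coding bases around the codons for the aspartate-arginine-tyrosine motif, the stretch at the inner end of the third helix that takes part in G protein coupling, are shown because every member carries this motif once. The 9 motif bases are in capitals, and each sequence is the coding strand of a GENCODE M21 transcript on GRCm38, the assembly that mm10 names.
Adra1a (chr14:66637932-66637964, plus strand): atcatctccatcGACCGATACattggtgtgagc
Adra1b (chr11:43835645-43835677, minus strand): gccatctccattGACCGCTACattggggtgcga
Adra1d (chr2:131561590-131561622, minus strand): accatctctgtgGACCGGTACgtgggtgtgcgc
Adra2a (chr19:54046635-54046667, plus strand): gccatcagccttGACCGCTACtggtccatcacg
Adra2b (chr2:127363892-127363924, plus strand): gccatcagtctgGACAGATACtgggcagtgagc
Adra2c (chr5:35280315-35280347, plus strand): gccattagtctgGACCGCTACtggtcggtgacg
Adrb1 (chr19:56722822-56722854, plus strand): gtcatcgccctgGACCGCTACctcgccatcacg
Each window lies within a single coding exon. Between any 2 members these windows differed at 6 to 17 of 33 positions, and the closest pair was Adra2a and Adra2c. Over the 21 pairs of coding sequences the longest identical run was 10 to 26 bases. The longest one again joined Adra2a and Adra2c: gagtacaacctgaagcgcacgccgcg. Of all 50-base words in a member's annotated transcripts, the share that also occurs in transcripts of another gene, on either strand, was 0 for the 3 alpha-2 genes and under 0.4 percent for Adra1a (0.386%), Adra1b (0.148%) and Adrb1 (0.39%). It was 5.35% for Adra1d, where all of these words belong to Gm14285, an antisense gene that overlaps 147 exon bases of Adra1d on the other strand. The strand setting of the counting was not given in the sources used here, so reads of Adra1d and of this antisense gene in those bases cannot be told apart.

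Gene structure differs between the classes. Adra1a (ENSMUSG00000045875.13) spans positions 66635251 to 66771168 on chromosome 14, and its annotated exons cover 8728 bases. Adra1b (ENSMUSG00000050541.14) spans 43774606 to 43901210 on chromosome 11, with 3382 exon bases, and Adra1d (ENSMUSG00000027335.9) spans 131545850 to 131562283 on chromosome 2, with 1899. The alpha-2 genes are compact: Adra2a (ENSMUSG00000033717.6) lies at 54044151 to 54048982 on chromosome 19, Adra2b (ENSMUSG00000058620.5) at 127363208 to 127367221 on chromosome 2 and Adra2c (ENSMUSG00000045318.6) at 35278319 to 35281763 on chromosome 5. Their exons cover 4832, 4014 and 3445 bases. Adrb1 (ENSMUSG00000035283.5) spans 56722199 to 56733113 on chromosome 19, with 3382 exon bases. For Adra2a, Adra2b, Adra2c and Adrb1 at least 1 annotated transcript is a single exon, whereas every annotated transcript of the alpha-1 genes has at least 2.

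Gene counts totalled 18526251 in replicate 1, 24690301 in replicate 2 and 8668527 in replicate 3, so replicate 3 had the least depth. It still had the most genes with a count, 19673 against 17196 in replicate 1 and 17907 in replicate 2. It also had the largest share of everything counted that fell on no feature, 45.3%. Levels are given as CPM, counts per 1000000 gene counts of the library, with the exact 95% Clopper-Pearson interval where a single library is described; these intervals cover counting error only. Neuronal transcripts led the cell class markers: the summed level of 6 pan-neuronal markers was 8713 to 16257 CPM, that of 8 astrocyte markers 1211 to 1959 CPM, that of 6 oligodendrocyte markers 224 to 383 CPM, that of 9 mural cell and fibroblast markers 56.3 to 170.2 CPM and that of 6 microglia markers 20.3 to 39.7 CPM. The astrocyte, oligodendrocyte, mural and microglia sums were each highest in replicate 1 and the pan-neuronal sum in replicate 2. The last 2 of these placements rested on 1 gene each. Without Snap25 the other 5 pan-neuronal markers summed to 3196, 3130.1 and 2396 CPM in replicates 1, 2 and 3, highest in replicate 1. Without Cx3cr1 the other 5 microglia markers summed to 19.9, 19.8 and 25.4 CPM, highest in replicate 3. In such bulk RNA, fewer cells of a type and less RNA per cell cannot be told apart.

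Adrenergic receptor transcripts were low but present in every library. The 7 members together took 1508, 1317 and 601 counts in replicates 1, 2 and 3, or 81.4, 53.3 and 69.3 CPM. A gene was called detected when it reached 1 CPM in each library, and 5 of the 7 members were detected: Adra1a, Adra1d, Adra2a, Adra2c and Adrb1. Of all listed genes 39.3% met the same rule. Adra1b and Adra2b did not meet it. The same 5 genes were detected with a threshold of 0.5 CPM, and with a threshold of 2 CPM 4 were, without Adra1d. Corrected for the length of all annotated exons, the detected members ranked low among 11378 detected protein-coding genes. Adra1a stood at the 34.3rd percentile on average, Adrb1 at the 30.1st, Adra2a at the 27.4th, Adra2c at the 17.2nd and Adra1d at the 9.21st. Adra1a passed the 50th percentile in 1 library, replicate 1, at the 51.4th. The rank of Adra1a depends on the length used. Its longest transcript, with 4282 bases in place of 8728, raised replicate 1 from 6.13 to 12.5 CPM per kb. Replicate 2 rose from 1.75 to 3.57 and replicate 3 from 3.595 to 7.33. Percentiles with that length were not computed.

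**Figure D1:**
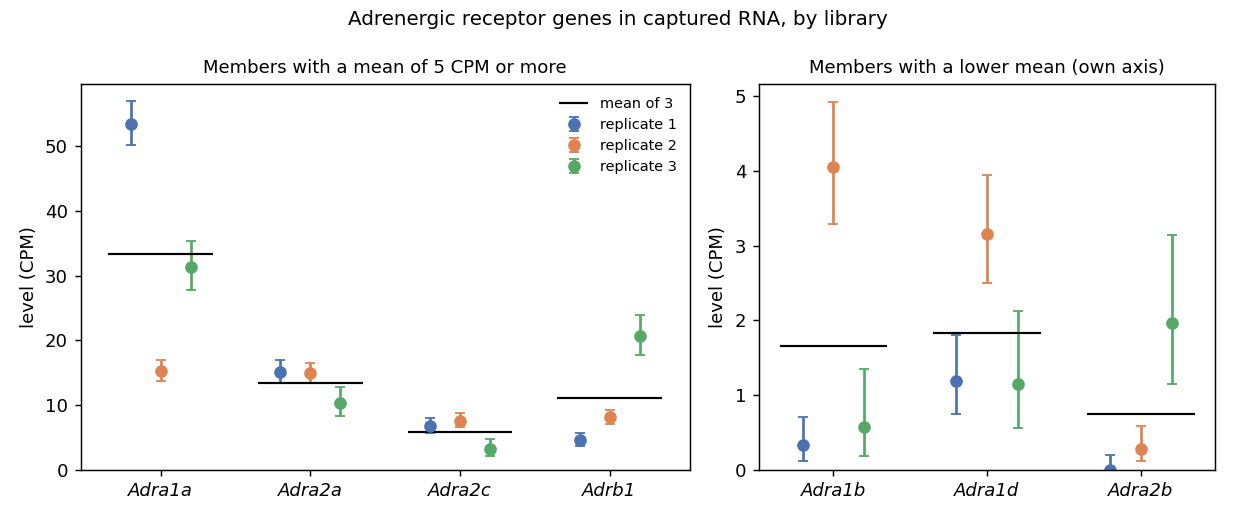
Level of each adrenergic receptor gene in CPM (vertical axis) in replicates 1, 2 and 3, with exact 95% intervals for counting error as bars and the mean of 3 libraries as a black line. The lower 3 genes have an axis of their own. Adra1a stands apart in replicate 1 at 53.5 CPM, Adrb1 in replicate 3 at 20.6 CPM and Adra1b in replicate 2 at 4.05 CPM, while Adra2a stays between 10.4 and 15.1 CPM.

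Adra1a had the highest mean of the alpha-1 genes, in CPM and per length. It encodes a Gq-coupled receptor found on neurons of the forebrain. Adra1a measured 53.5 CPM in replicate 1 (interval 50.3 to 57.0), 15.3 CPM in replicate 2 (13.8 to 16.9) and 31.4 CPM in replicate 3 (27.8 to 35.3), a mean of 33.4 ± 19.2 CPM (SD, n = 3). The counts behind these levels were 992, 377 and 272. The counting intervals of the 3 libraries did not overlap, and the highest library was 3.51 times the lowest.

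The other alpha-1 genes were lower, and both were highest in replicate 2. Adra1b, an alpha-1 receptor that moves to the cell surface readily, measured 0.324 CPM in replicate 1 (0.119 to 0.705), 4.05 CPM in replicate 2 (3.30 to 4.93) and 0.577 CPM in replicate 3 (0.187 to 1.35), from 6, 100 and 5 counts. Its mean of 1.65 ± 2.08 CPM rests on replicate 2, without which it was 0.45 CPM. Adra1d, an alpha-1 receptor known for being held inside cells when expressed alone, measured 1.19 CPM in replicate 1 (0.744 to 1.80), 3.16 CPM in replicate 2 (2.50 to 3.94) and 1.15 CPM in replicate 3 (0.553 to 2.12), a mean of 1.83 ± 1.15 CPM. Without replicate 2 the mean of Adra1d was 1.17 CPM, 0.638 times the mean of all 3. For both genes the interval of replicate 2 lay above the intervals of the other libraries, which overlapped each other. Adra1a had the opposite placement, with its lowest value in replicate 2.

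Among the alpha-2 genes Adra2a was the steadiest member of the whole group. It encodes the receptor through which noradrenaline holds back its own release and the one on which the drugs clonidine and guanfacine act. Adra2a measured 15.1 CPM in replicate 1 (13.3 to 16.9), 14.9 CPM in replicate 2 (13.4 to 16.5) and 10.4 CPM in replicate 3 (8.35 to 12.8), a mean of 13.4 ± 2.66 CPM. Its SD was 19.8% of its mean, against 39.4% for Adra2c and more for each other member. Adra2c, the other alpha-2 receptor of forebrain neurons, measured 6.75 CPM in replicate 1 (5.62 to 8.04), 7.57 CPM in replicate 2 (6.53 to 8.74) and 3.23 CPM in replicate 3 (2.15 to 4.67), a mean of 5.85 ± 2.31 CPM. Both genes had close values in replicates 1 and 2, with overlapping intervals, and their lowest value in replicate 3.

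Adra2b, an alpha-2 receptor best known from blood vessels and thalamus, was near the limit of these libraries. It had 0 counts in replicate 1, where the exact interval reaches 0.199 CPM and 3 counts would be 0.162 CPM, 7 counts or 0.284 CPM in replicate 2 (0.114 to 0.584) and 17 counts or 1.96 CPM in replicate 3 (1.14 to 3.14). The mean of 0.748 ± 1.06 CPM rests on replicate 3, the library with the least depth, and was 0.142 CPM without it. Without replicate 1 it was 1.12 CPM.

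Adrb1, the Gs-coupled beta-1 receptor and a target of beta blockers, had its highest value in replicate 3. It measured 4.53 CPM in replicate 1 (3.62 to 5.61), 8.10 CPM in replicate 2 (7.02 to 9.30) and 20.6 CPM in replicate 3 (17.7 to 23.9), from 84, 200 and 179 counts, a mean of 11.1 ± 8.46 CPM. The 3 intervals did not overlap, and the highest library was 4.55 times the lowest. Without replicate 3 the mean was 6.32 CPM, 0.569 times that of all 3 libraries. Adra1a and Adrb1 thus had different highest libraries, replicate 1 and replicate 3.

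These differences between libraries were beyond counting error for every member, since at least 2 of the 3 pairs of libraries had separate intervals for each. They were not beyond the spread of other genes of like abundance. A test of variation between the libraries over the 15336 genes whose mean reached 1 CPM (edgeR, goodness of fit of an intercept-only model, Benjamini-Hochberg adjustment) called 0.222% of genes, and 0 of the 6 members that passed this filter. Adra2b did not pass it. At an unadjusted p under 0.05 the test also had 0 of the 6, against 7.09% of all genes, and DESeq2's dispersion outliers held 0 of the 6, against 0.137% of all genes. Adra1a came nearest, with an edgeR adjusted p of 0.809 (unadjusted 0.1001), followed by Adrb1 at 0.91 and Adra1b at 0.954. The adjusted p of Adra1d, Adra2a and Adra2c was 0.995 or more in the same edgeR test. With 3 libraries such a result does not show that levels were alike.

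Summed markers of several cell classes had the same highest library as single members. The summed mural cell and fibroblast markers (6 of 9 detected) measured 170.2, 56.3 and 63.2 CPM in replicates 1, 2 and 3, and the summed cholinergic markers (1 of 4 detected) 102.6, 19.8 and 45.9 CPM, both highest in replicate 1, where Adra1a was highest. The summed astrocyte markers (8 of 8 detected) measured 1959, 1211 and 1246 CPM and the GABAergic markers (6 of 6) 686.6, 418.2 and 444.3 CPM, also with the highest value in replicate 1. The summed oligodendrocyte precursor markers (4 of 4 detected) measured 163, 112 and 229.7 CPM and the ependymal and choroid plexus markers (3 of 5) 45.9, 45.5 and 92.5 CPM, highest in replicate 3, where Adrb1 and Adra2b were highest. Both sums were lowest in replicate 2, whereas Adrb1 and Adra2b were lowest in replicate 1. Of the precursor markers, Vcan, Cspg4 and Pdgfra were highest in replicate 3. Olig2 was highest in replicate 1, at 31.3, 11.1 and 16.8 CPM in replicates 1, 2 and 3. The ependymal and choroid plexus placement rested on Ttr alone, without which the other 4 markers summed to 44.5, 41.6 and 37.95 CPM, lowest in replicate 3. The summed endothelial markers (4 of 6 detected) measured 39.7, 55.2 and 26.1 CPM and the glutamatergic markers (6 of 6) 2551, 4190 and 2858 CPM, highest in replicate 2, where Adra1b and Adra1d were highest. No marker on these lists had 0 counts in all libraries, but Kcnj8, a mural marker, Slc18a3, a cholinergic one, and Folr1, a choroid plexus one, each had 0 in 2 of the 3. Of the 61 markers tested, 2 (3.28%) were called as varying between the libraries by the edgeR test described above, against 0.222% of all genes tested. They were Chat, which makes acetylcholine, at 28.6, 0.608 and 1.62 CPM in replicates 1, 2 and 3 (edgeR adjusted p = 0.0268), and Ttr, a choroid plexus transcript, at 1.35, 3.97 and 54.6 CPM (edgeR adjusted p = 0.00147). The part of these cell classes in the receptor levels was not tested.

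Levels of different genes are comparable only per length, so the order of the members was taken in CPM per kb of annotated exon. By mean it ran from Adra1a (3.83 ± 2.20 CPM per kb) over Adrb1 (3.28 ± 2.50), Adra2a (2.78 ± 0.55), Adra2c (1.70 ± 0.67), Adra1d (0.965 ± 0.605) and Adra1b (0.488 ± 0.616) to Adra2b (0.186 ± 0.264). Neighbours in this order were compared within each library on the log2(CPM per kb + 0.1) scale, over 6 pairs. Adra2a exceeded Adra2c by 0.74 ± 0.33 (log2, SD, n = 3), in 3 of 3 libraries (exact two-sided sign-flip permutation p = 0.25, adjusted p = 0.5). Adra2c exceeded Adra1d by 0.81 ± 0.61, and Adra1d exceeded Adra1b by 1.24 ± 0.73, each in 3 of 3 libraries with the same exact permutation p of 0.25 and adjusted p of 0.5. These 3 differences were larger than their SD, but 0.25 is the smallest p that 3 libraries allow. In CPM without length Adra1d minus Adra1b was 0.71 ± 0.99 (exact permutation p = 0.5). Adra1b was then above Adra1d in replicate 2, at 4.05 against 3.16 CPM. Adra2a minus Adra2c and Adra2c minus Adra1d stayed positive in 3 of 3 libraries in CPM.

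The top of the order was not settled. Adra1a minus Adrb1 was 0.31 ± 1.57 on that log2 scale, higher in 1 of 3 libraries, and without replicate 1 it turned to −0.59. With the longest transcript it was 1.13, and in CPM without length 1.68, both positive in 3 of 3 libraries (exact permutation p = 0.25). Adrb1 minus Adra2a was −0.015 ± 1.34, and turned positive without replicate 1 (0.56) and without replicate 2 (0.15). With all exons as the length, the exact permutation p was 1 for both pairs. At the bottom, Adra1b minus Adra2b was 0.92 ± 2.02, positive in 2 of 3 libraries (exact permutation p = 0.75, adjusted p = 1), and −0.076 without replicate 2. None of these 3 differences was larger than its SD, and in all 6 neighbouring pairs the ranges of the genes over the 3 libraries overlapped.

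A different member led in each library. Adra1a led replicate 1 with 46.2% of the summed CPM per kb of the 7 members, Adra2a led replicate 2 with 25.0% and Adrb1 led replicate 3 with 43.4%. In replicate 2 the signal was spread most evenly, with Adra1a at 14.2%, Adra1b at 9.69%, Adra1d at 13.5%, Adra2c at 17.8% and Adrb1 at 19.4%. The share of Adra2a moved least among the 3 leading genes, from 15.3% to 25.0%. The sum itself was 13.3, 12.4 and 14.1 CPM per kb, a mean of 13.2 ± 0.848. Both facts depend on the length used for Adra1a, whose annotated exons cover 8728 bases while its longest single transcript has 4282. With the longest transcript of each gene Adra1a led all 3 libraries, at 63.0%, 24.5% and 39.2%, and the sum was 19.8, 14.5 and 18.7 CPM per kb.

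**Figure D2:**
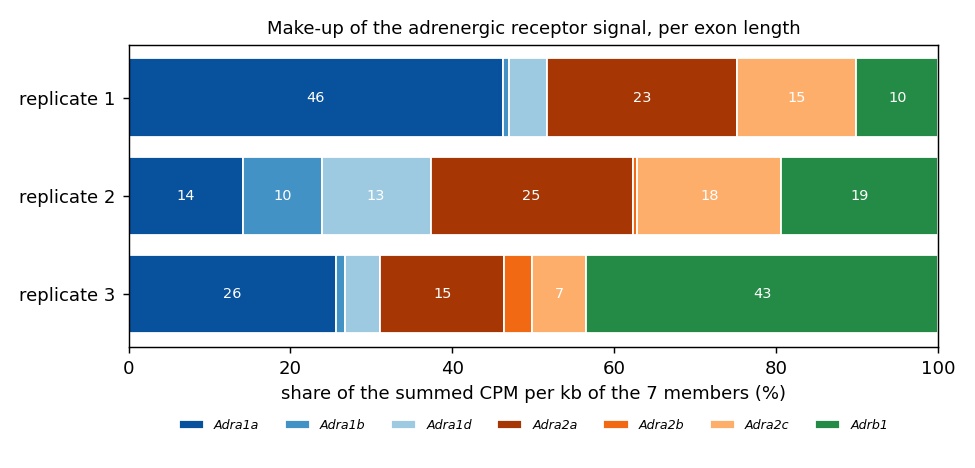
Share of each member in the summed CPM per kb of the 7 adrenergic receptor genes (horizontal axis, percent), 1 bar per library, with blue for alpha-1, orange and brown for alpha-2 and green for beta-1 genes. Adra1a takes 46% of replicate 1 and Adrb1 43% of replicate 3, while the alpha-2 genes together are widest in replicate 2.

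By G protein class, with all exons as the length, no class stood above another in all libraries. The alpha-1 genes summed to 6.86, 4.61 and 4.37 CPM per kb in replicates 1, 2 and 3, and the alpha-2 genes to 5.08, 5.35 and 3.57. The beta-1 gene had 1.34, 2.40 and 6.11 CPM per kb. Alpha-1 minus alpha-2 was 0.17 ± 0.33 on the log2 scale, alpha-1 minus beta-1 was 0.91 ± 1.37 and alpha-2 minus beta-1 was 0.74 ± 1.34, each positive in 2 of 3 libraries and smaller than its SD. For each of these 3 pairs the exact permutation test gave p = 0.5, and 0.5 also after adjustment. With this length the beta-1 gene was below both alpha classes in replicates 1 and 2 and above both in replicate 3. Without replicate 3 alpha-1 minus beta-1 was 1.59 and alpha-2 minus beta-1 was 1.49. With the longest transcript of each gene, alpha-1 minus alpha-2 was 0.93 ± 0.59 and alpha-1 minus beta-1 was 1.48 ± 1.43. Alpha-1 was then above both other classes in 3 of 3 libraries (exact permutation p = 0.25 for each). Alpha-2 minus beta-1 was 0.55 ± 1.35 with this length (exact permutation p = 0.75). In CPM without length alpha-1 was above beta-1 in 3 of 3 libraries (exact permutation p = 0.25). It was below alpha-2 in replicate 2, at 22.48 against 22.76 CPM.

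Beside the other receptors for amines and acetylcholine, the adrenergic sum was lower than the sums for serotonin and muscarinic receptors in every library. The 12 serotonin G protein-coupled receptor genes summed to 42.3, 27.6 and 31.95 CPM per kb and the 5 muscarinic genes to 21.2, 22.1 and 37.8, against 13.3, 12.4 and 14.1 for the 7 adrenergic genes. The sums depend on how many genes each list holds, and the adrenergic sum leaves out the remaining beta receptor genes. Adrenergic minus serotonin was −1.33 ± 0.29 on the log2 scale and adrenergic minus muscarinic −0.97 ± 0.39, both negative in 3 of 3 libraries and without overlap of the values (exact permutation p = 0.25 for each, adjusted p = 0.5 over 4 families). The leading genes per length were Htr5a, a Gi/o-coupled serotonin receptor, at 7.27 ± 1.89 CPM per kb and Chrm1, the main muscarinic receptor of cortical pyramidal cells, at 15.2 ± 3.10. The adrenergic sum overlapped those of the dopamine receptors, at 25.1, 5.15 and 17.8 CPM per kb and led by Drd2 (8.54 ± 8.98) through replicate 1 alone, and of the histamine receptors, at 13.3, 9.78 and 13.5 and led by Hrh3 (8.69 ± 0.63). Per kb, Drd2 was above Drd1 in replicate 1, at 18.5 against 5.95, and below it in replicates 2 and 3, and without replicate 1 the means were 3.56 for Drd2 and 7.36 for Drd1. Without replicate 3 Htr2a (7.41) led the serotonin receptors over Htr5a (7.09). Adrenergic minus dopamine was −0.0024 ± 1.12 (exact permutation p = 1), 0.45 without replicate 1 and 0.17 without replicate 3, and adrenergic minus histamine was 0.13 ± 0.18 (exact permutation p = 0.5). With the longest transcript of each gene adrenergic minus histamine was 0.28 ± 0.07, and in CPM without length 0.59 ± 0.15. Both were positive in 3 of 3 libraries (exact permutation p = 0.25 for each). The dopamine sum was the one that moved most, with its lowest value in replicate 2, where the adrenergic sum was also lowest but by less.

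**Figure D3:**
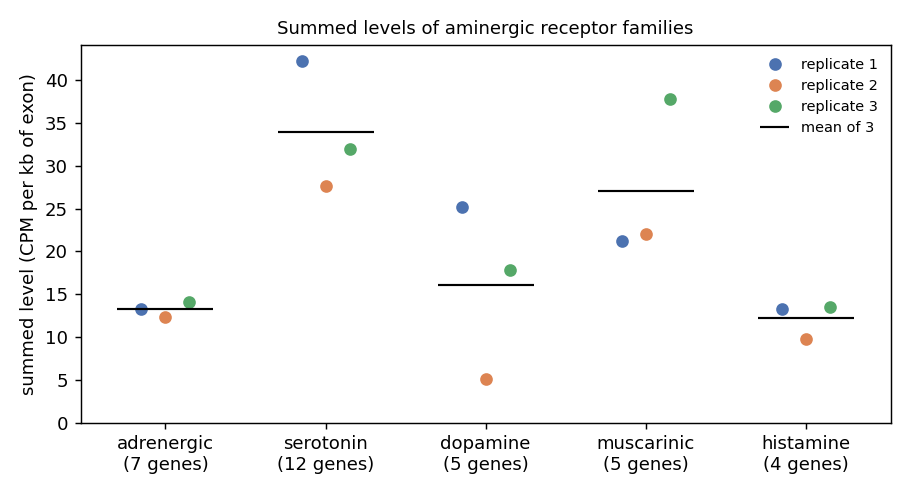
Summed level of each receptor family in CPM per kb of exon (vertical axis), 1 point per library and a black line at the mean of 3, with the number of genes under each name. The adrenergic points lie within 12.4 to 14.1, below every serotonin and muscarinic point, and among the dopamine and histamine points. They leave out the remaining beta receptor genes.

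The genes that make noradrenaline were low, and none of the 4 enzymes reached 1 CPM in every library. Th, which makes the dopamine precursor L-DOPA, measured 4.91, 0.486 and 1.5 CPM in replicates 1, 2 and 3. Ddc, the decarboxylase that follows it, measured 1.78, 3.77 and 0.461 CPM. Dbh, which turns dopamine into noradrenaline and marks noradrenergic neurons, had 0 counts in replicate 1 and 2.27 and 0.461 CPM in replicates 2 and 3, and Pnmt, which makes adrenaline, had 0, 0 and 0.115 CPM. Of the 5 genes for synthesis and vesicle loading 1 was detected, against 39.3% of all listed genes. It was Slc18a2, the vesicular monoamine transporter, at 2.97, 6.80 and 19.4 CPM, lowest in replicate 1 and highest in replicate 3, the order that Adrb1 also had. The noradrenaline transporter Slc6a2 had 0 counts in all 3 libraries, where 3 counts would be 0.162, 0.122 and 0.346 CPM.

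Genes for uptake by other carriers and for breakdown of catecholamines were present, with 4 of 5 described here detected, against 39.3% of all listed genes. Maoa, the oxidase that prefers noradrenaline and serotonin, measured 26.8, 14.0 and 15.2 CPM in replicates 1, 2 and 3, and Maob, the other monoamine oxidase, 6.80, 14.1 and 3.23 CPM. Maoa was highest in replicate 1 and Maob in replicate 2. The low-affinity carriers Slc29a4 and Slc22a3 measured 9.72, 20.5 and 26.6 CPM and 1.13, 2.71 and 2.88 CPM. None of the tested genes of these 2 lists, 3 and 4 of them, was called as varying between the libraries by the edgeR test (0.222% of all genes) or had an unadjusted p under 0.05 (7.09% of all genes), and with so few genes nothing is read from these counts.

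**Figure D4:**
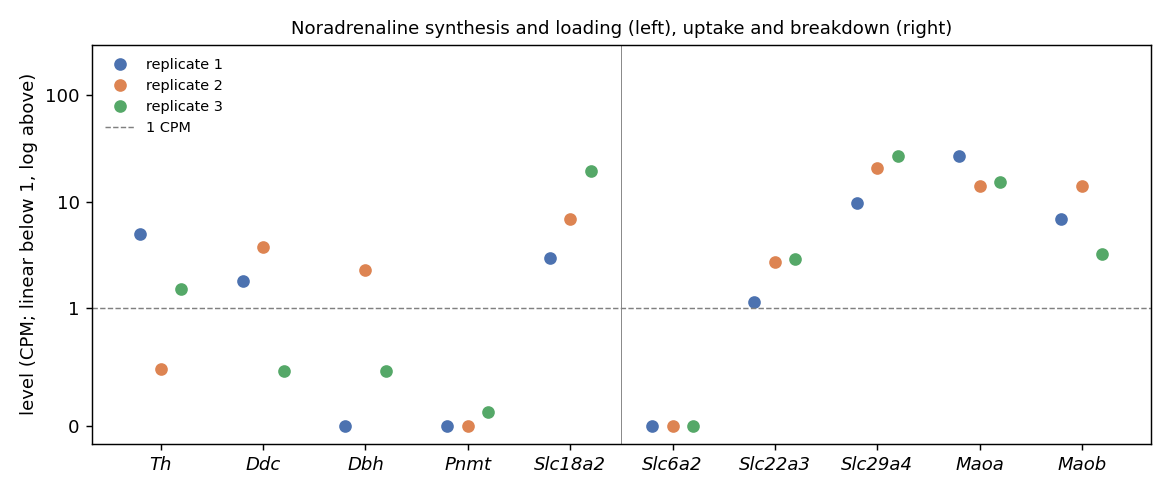
Level in CPM (vertical axis, linear below 1 and log above) of genes for noradrenaline synthesis and vesicle loading (left of the line) and for uptake and breakdown (right), 1 point per library, with a dashed line at 1 CPM. Slc18a2 is the gene on the left above 1 CPM in all libraries, Slc6a2 lies at 0 in all, and Maoa in replicate 1 and Slc29a4 in replicate 3 are highest, at 26.8 and 26.6 CPM.

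The signalling partners of all 3 receptor classes were broadly detected. The leading genes named here and in the next paragraph are those with the highest mean CPM, which is not corrected for length. Of the Gq arm 13 of 14 genes were detected (all but Gna14), led by the protein kinase C genes Prkce at 647 ± 245 CPM and Prkcb at 610.5 ± 159.5 CPM and by the G protein subunit Gnaq at 318 ± 123 CPM. Of the Gi/o arm 11 of 12 were detected (all but the potassium channel gene Kcnj5), led by Gnao1 at 1518 ± 342 CPM, Gnai1 at 409 ± 111 CPM and Rgs4, which speeds the shut-off of Gi/o and Gq signals, at 340.4 ± 299.5 CPM. Rgs4 measured 146, 685 and 189.8 CPM and was the gene of this arm with an unadjusted p under 0.05 (edgeR adjusted p = 0.1025). Of the Gs and cyclic AMP arm 20 of 21 were detected (all but the pacemaker channel gene Hcn2). In CPM they were led by Gnas at 1457 ± 397 and by the protein kinase A subunits Prkacb at 637 ± 163 and Prkar1a at 534 ± 63.95. Per length the subunit Prkaca, at 128.5 ± 26.7 CPM per kb, stood above Prkacb, at 72.7 ± 18.6 CPM per kb. The share of all listed genes detected was 39.3%, as given above.

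Genes that switch off and place the receptors were detected as well, beside the 39.3% detected among all listed genes. All 7 receptor kinase and arrestin genes were detected, led by the arrestin Arrb1 at 189 ± 46.7 CPM and by Adrbk2 and Adrbk1, the kinases named for acting on beta receptors, at 131 ± 31.6 and 65.3 ± 26.5 CPM. All 12 scaffold and trafficking partners were detected, led in CPM by the kinase anchor Akap5 at 523 ± 103 CPM, spinophilin (Ppp1r9b), which binds alpha receptors, at 261 ± 59.3 CPM and Dlg4, the PSD-95 scaffold that binds the beta-1 receptor, at 234 ± 56.2 CPM. Per length Dlg4 (17.7 CPM per kb) lay below Reep2 (40.4), Reep1 (25.4) and Magi3 (19.9). The edgeR test called 0 of the 64 tested genes of these 5 lists as varying, and 1 of them, Rgs4, had an unadjusted p under 0.05. Over all genes tested the shares were 0.222% called and 7.09% at an unadjusted p under 0.05, so no difference of these lists from other genes is read from the counts.

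Likeness to the members was measured as the root mean square difference between 2 genes' log2(CPM + 1) deviations from their own means over the 3 libraries, for the 4 members whose mean reached 5 CPM, each against 140 other genes of the gene lists. For Adra1a the nearest were the endothelial marker Tek (0.087), the interneuron transcription factor Lhx6 (0.127) and the astrocyte enzyme Aldh1l1 (0.143), beside a median of 0.753 over all 140. Tek did not follow its list: the summed endothelial markers were highest in replicate 2, at 55.2 CPM, where Adra1a and Tek were lowest. For Adra2a they were Prkaca (0.032), Gnao1 (0.057) and Prkar1a (0.085), beside a median of 0.435, and for Adra2c they were Prkar2a (0.013), the neuronal tubulin Tubb3 (0.058) and Prkar2b (0.075), beside 0.597. For Adrb1 they were Cspg4, a proteoglycan of oligodendrocyte precursors (0.160), Slc18a2 (0.163) and the muscarinic gene Chrm4 (0.270), beside 0.945. No member was among the 3 nearest genes of another member. With 3 libraries many genes share a placement, and these distances describe the libraries alone.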

How the data were processed

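Raw counts per gene were deposited by the authors for 3 immunopurified libraries. The submitters' processing notes name STAR (2.0.0e), HTSeq and the mm10 build. For the annotation, the strand setting and the kit, nothing is given in the sources used here. The files also hold 5 summary classes that name no gene, which were left out of library sizes and tests. Of everything counted in the deposited files, these classes included, 31.4%, 25.6% and 45.3% had no feature in replicates 1, 2 and 3, and 32.7%, 24.3% and 16.5% did not align uniquely.

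Counts were scaled to 1000000 gene counts per library (CPM) and, between genes, by kilobases of annotated exon (GENCODE M21). Libraries had 8668527 to 24690301 gene counts, so 3 counts correspond to 0.346 to 0.122 CPM. Counting intervals came from SciPy 1.17.1. Variation between libraries was tested with edgeR 4.0.16 (R 4.3.3, TMM scaling, trended dispersion, chi-square goodness of fit, adjusted p threshold 0.05). DESeq2 1.42.0 was the alternative tool. Differences within libraries were tested by flipping signs in every way, an exact two-sided permutation test (NumPy 2.4.6), whose smallest p is 0.25. Alternatives were other scalings, filters, pseudocounts and gene lengths, and leaving out each library. Leaving out single markers, the receptor sum by longest transcript and the leading receptor gene without each library were added after the data were seen. The members and gene lists were chosen with earlier results of these data known. The text names all 7 members, the 3 genes of each pathway list with the highest mean CPM, every gene of the noradrenaline synthesis, loading, uptake and breakdown lists, every list gene called as varying, the leading gene of each other receptor family and the 3 nearest genes by likeness. One gene of the uptake and breakdown list is not reported here and was left out of the list's counts. Markers at 0 in 2 libraries and genes not detected on a pathway list were named after their values were seen. Beyond this rule, Reep1, Reep2 and Magi3 are named for their level per length. Drd1 and Htr2a are named beside the leading genes of their families, and single markers for their part in a list sum.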

Additional observations from a re-analysis of the deposited data

How the results depend on the processing

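Of the 5 detected members, 4 were detected at 2 CPM, where Adra1d was not, and all 5 under the other alternatives for this count. No member was called as varying under any alternative run, and the class sums kept their direction. The count of all genes called as varying was 34, against 783 with a common dispersion, 21 as DESeq2 dispersion outliers, and 9, 4 and 24 without replicates 1, 2 and 3. Adra1b had an unadjusted edgeR p of 0.01811 with a common dispersion, and Adra1a one of 0.04248 without replicate 3. The receptor sum moved from 13.2 to 17.7 CPM per kb with the longest transcript in place of all exons. Differences near 0 turned their sign (log2). Adrb1 minus Adra2a was 0.031 with a pseudocount of 1 and 0.17 with the longest transcript, and ranged from −0.76 to 0.56 when 1 library was left out. Adra1a minus Adrb1 ranged from −0.59 to 0.84 and Adra1b minus Adra2b from −0.076 to 1.95 in the same way. Adrenergic minus dopamine receptors was 0.39 with the longest transcript and 0.70 in CPM without length, and ranged from −0.63 to 0.45 with 1 library left out. Counts of 0 to 17 in Adra2b and of 5 to 100 in Adra1b limit what their levels can show, and 3 libraries allow no permutation p under 0.25.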
